A study of Mus musculus with 11 samples.

Results

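mmu-miR-142a-3p and mmu-miR-142a-5p, here miR-142a-3p and miR-142a-5p, are the arms of 1 microRNA (miRNA) hairpin, mir-142a. They were taken by name from 11 Agilent mouse miRNA arrays, where they are 2 of 1247 miRNAs. The arrays measured Cy3-labelled RNA (100 ng of total RNA per sample) of GFP-positive macrophages from hearts of Cx3cr1GFP/+ mice of 2 to 3 months. GFP stands in 1 allele of the fractalkine receptor gene in all groups, controls included, and marks the cells that were isolated. The labels name neither a sort gate nor a purity. 4 groups were compared. Ly6clow/CX3CR1high macrophages came from uninjured hearts of unoperated mice (day 0, 2 arrays) and from hearts at day 7 and day 30 after cryoinjury, a freezing lesion used as a model of myocardial infarction (3 arrays each). Ly6chigh/CX3CR1low macrophages came from day 3 after cryoinjury (3 arrays). This population was taken on that day alone, which leaves day and population confounded wherever day 3 is compared. The replicates are called independent and biological by the labels' protocols, which do not say whether animals were pooled.

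miRNAs are short RNAs cut from hairpin transcripts. One strand is loaded into an Argonaute protein and guides it to messenger RNAs that pair with the seed, the stretch of bases 2 to 8. miR-142 is made in cells of nearly all blood lineages, both of its arms are found loaded, and its targets in mouse myeloid cells include the mRNA of interleukin 6. Binding sites for the 3p arm have been built into gene therapy vectors to silence them in blood cells.

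The mature arms and the hairpin are shown because the arms are compared with each other below. They were taken from RefSeq (build GRCm38.p6), in which the hairpin gene Mir142 lies on the plus strand at chr11:87756864-87756927, the 5p arm at chr11:87756867-87756887 and the 3p arm at chr11:87756903-87756925. Capitals mark the seed of each mature miRNA, and in the hairpin both mature arms.
miR-142a-3p: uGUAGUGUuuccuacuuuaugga
miR-142a-5p: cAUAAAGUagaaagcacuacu
mir-142a hairpin: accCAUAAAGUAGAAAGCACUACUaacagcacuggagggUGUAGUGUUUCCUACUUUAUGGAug
The arms have 23 and 21 bases, of which 34.8% (3p) and 33.3% (5p) are G or C. Neither seed is shared by another of the 1031 miRNAs of the array whose names matched RefSeq. RefSeq also places miR-142b on the minus strand across the 3p arm (chr11:87756906-87756925), and it was not analysed here.

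The arrays differed in brightness, taken as the 75th percentile of the signal of the 126 miRNAs detected on all 11 arrays. The day 0 arrays had 55.7 and 163 scanner units. Day 3 spanned 805 to 1607 units, day 7 spanned 114 to 323 and day 30 spanned 1453 to 2304, so that the groups in which the miR-142a arms were high were also the bright ones. Signals were therefore divided by it. Replicates 2 and 3 of day 30 differed, for a typical miRNA, by less than the error that the scanner reports (median squared difference 0.209 times that expected, where the remaining 9 pairs of replicates had 2.74 to 43.1, although 5 of 290 miRNAs differed by more than 10 times the expected), and were counted as 1 sample, which left 10 samples. The myeloid miRNA miR-223-3p was detected on all 11 arrays, as were the cardiomyocyte miRNAs miR-133a-3p and miR-133b-3p. Of the other cardiomyocyte miRNAs miR-1a-3p was detected on 6 arrays, and miR-208a-3p, miR-208b-3p and miR-499-5p on none.

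mmu-miR-142a-3p was detected on all 11 arrays. Its signal was 38.6 and 5.40 scanner units at day 0, 976, 613 and 2536 at day 3, 81.8, 11.6 and 41.4 at day 7, and 5324, 2195 and 2684 at day 30 (replicates 1 to 3). Every day 3 and day 30 array lay above every day 0 and day 7 array. The scanner's own error of these signals was 7.46% to 21.0% of the signal, with a median of 7.57%. As a share of the summed signal of all miRNAs, the 3p arm made up 0.148% and 0.0293% at day 0, 0.472%, 0.346% and 0.878% at day 3, 0.114%, 0.0518% and 0.0942% at day 7, and 1.46%, 0.936% and 1.01% at day 30. By share, as by signal, every day 3 and day 30 array lay above every day 0 and day 7 array, and day 0 and day 7 overlapped. In bulk RNA fewer cells of a type and less RNA per cell cannot be told apart.

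mmu-miR-142a-5p was detected on 7 of 11 arrays. Both day 0 arrays, at 1.53 and 1.40 scanner units, were not detected. The day 3 arrays gave 78.9, 59.7 and 231 units. At day 7 it was detected on replicate 1 alone, with 11.2 units, and the other arrays of that day read 1.22 and 1.44 units. The day 30 arrays, with 840, 366 and 470 units, all lay above those of every other group. On arrays without detection the reported signal equals its error, so that these are readings of background. The levels of the arms are not set against each other, since they are read by different probes.

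**Figure D1:**
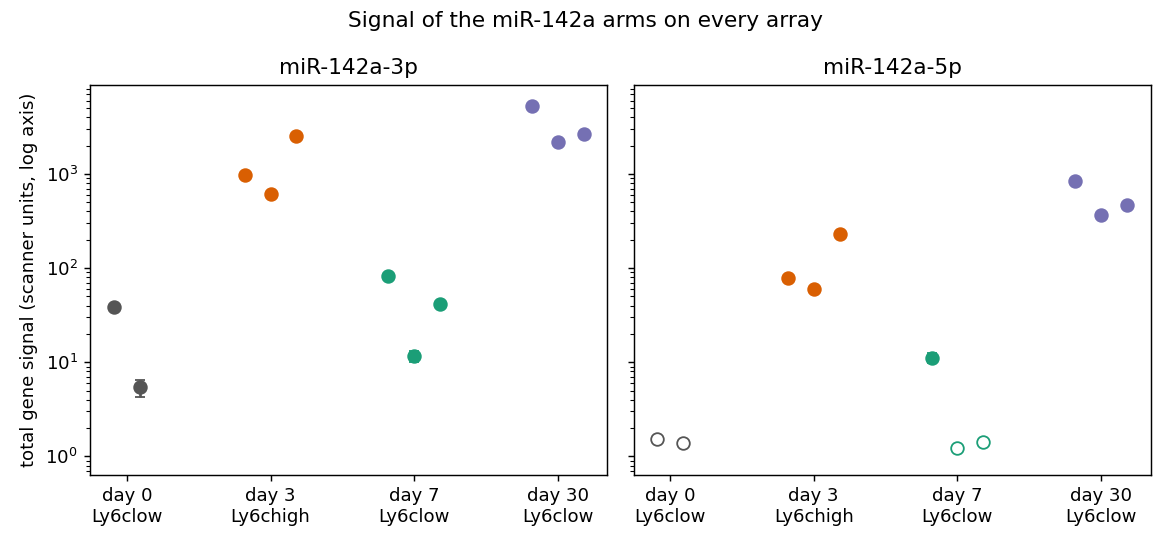
Signal of miR-142a-3p (left) and miR-142a-5p (right) on each of the 11 arrays, in scanner units on a log axis, by day and population. Filled points were detected and open ones were not, and bars show the scanner's error, which is smaller than most points. The 3p arm was at 613 to 5324 units at day 3 and day 30 and at 5.40 to 81.8 units at day 0 and day 7, and the 5p arm was undetected on 4 of the 5 arrays of day 0 and day 7.

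Scaled log2 signals (relative to the 75th percentile) put miR-142a-3p at -2.72 ± 0.91 at day 0 (SD, n = 2), 0.10 ± 0.53 at day 3 (n = 3), -2.64 ± 0.66 at day 7 (n = 3) and 0.91 ± 0.43 at day 30 (n = 2). In rising order the groups stood as day 0, day 7, day 3 and day 30. Neither the first 2 nor the last 2 of this order passed the test against each other in the fit of all groups. miR-142a-5p was at -6.03 ± 1.01 at day 0 (n = 2), -3.39 ± 0.52 at day 3 (n = 3), -6.30 ± 1.34 at day 7 (n = 3) and -1.70 ± 0.35 at day 30 (n = 2). The day 0 and day 7 readings rest on background on 4 of 5 arrays. Across the groups both arms passed the limma F test (adjusted p = 0.000435 for 3p and 0.000621 for 5p), as did 78.9% of the 369 tested miRNAs.

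Both arms rose in Ly6chigh/CX3CR1low macrophages of day 3 against Ly6clow/CX3CR1high macrophages of the uninjured heart. The 3p arm stood at 0.10 ± 0.53 at day 3 (n = 3) and -2.72 ± 0.91 at day 0 (n = 2), 2.82 higher on the log2 scale (limma adjusted p = 0.00237, SE 0.55). The 5p arm was undetected on both day 0 arrays, so its day 3 mean was set against the lowest signal the scanner called detected. That mean was 5.61-fold the mean of this limit over the 2 day 0 arrays, and 3.32-fold the higher limit, that of replicate 2. These folds leave out the spread between samples and are not lower bounds of the change. The fitted log2 change, with background readings at day 0, was 2.64 (95% interval 1.13 to 4.15, limma adjusted p = 0.00864). It was 1.56 within slide 2. The groups did not overlap in either arm. In this comparison 55.3% of the 369 miRNAs were called and 65.6% did not overlap between groups, and the 126 miRNAs that every array detected had a median change of -0.77 (2.73 in unscaled signals). The change of the 3p arm was 2.42 within slide 1 and 2.97 within slide 2. The call of the 5p arm was lost without day 0 replicate 1 (1.93, adjusted p = 0.0545).

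By day 7 the Ly6clow/CX3CR1high macrophages stood near those of the uninjured heart. miR-142a-3p was at -2.64 ± 0.66 at day 7 (n = 3) and -2.72 ± 0.91 at day 0 (n = 2), a difference of 0.08 with a 95% interval of -1.11 to 1.27 (limma adjusted p = 0.936). The interval still holds a change of 2-fold in either direction, and 3.79% of all tested miRNAs were called, with 19.5% not overlapping between groups. For miR-142a-5p no fold is given, since it was undetected at day 0 and on 2 of 3 day 7 arrays (adjusted p = 0.812). Against day 3 both arms were lower at day 7 by the test. The 3p arm fell by 2.74 on the log2 scale (SE 0.49, limma adjusted p = 0.00201), and the change was -2.65 within slide 1 and -2.90 within slide 2. For the 5p arm, at background on 2 of 3 day 7 arrays, the size of the difference is set by the floor, at -2.91 in this fit (limma adjusted p = 0.00405) and -1.64 with the highest floor (adjusted p = 0.00782). Neither arm overlapped between these groups. Here 37.1% of all tested miRNAs were called and 64.2% did not overlap.

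Both arms had their highest mean at day 30. miR-142a-3p stood at 0.91 ± 0.43 at day 30 (n = 2) and -2.72 ± 0.91 at day 0 (n = 2), 3.63 higher (limma adjusted p = 0.00129, SE 0.60). For miR-142a-5p the day 30 mean was 18-fold the mean limit of the day 0 arrays and 10.7-fold that of replicate 2. These folds too are not lower bounds. The fitted change, with background readings at day 0, was 4.33 (95% interval 2.67 to 5.98, limma adjusted p = 0.00153). It was 3.61 without day 0 replicate 1. In this comparison 56.4% of all miRNAs were called, 33 of them higher and 175 lower. That split turns on the scaling, with 276 higher and 0 lower in unscaled signals and 104 higher and 85 lower after quantile normalization, and both arms were higher at day 30 in each of these. Against day 7 the 3p arm rose by 3.55 (SE 0.55, adjusted p = 0.000482) and the 5p arm was higher by the test, with a size set by the floor (4.60, limma adjusted p = 0.000412, and 3.33 with the highest floor, adjusted p = 0.00107). Here 47.7% of all miRNAs were called, 50 of them higher (234 of 244 in unscaled signals). The groups did not overlap in either arm in these 2 comparisons, as in 78.3% (against day 0) and 71.3% (against day 7) of all tested miRNAs. The comparisons share groups, so their changes are not independent of each other.

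Day 30 against day 3 was the only comparison in which both arms were detected on every array, and the change of the 5p arm was the larger there. miR-142a-3p was at 0.91 ± 0.43 at day 30 (n = 2) and 0.10 ± 0.53 at day 3 (n = 3), a difference of 0.81 (95% interval -0.38 to 2.00, limma adjusted p = 0.273) with overlap between the arrays. miR-142a-5p was at -1.70 ± 0.35 at day 30 and -3.39 ± 0.52 at day 3, a difference of 1.68 (interval 0.18 to 3.19, adjusted p = 0.0859) without overlap. In all 30.9% of the tested miRNAs were called and 74.5% did not overlap. The spread in this fit is shared with day 0 and day 7. With only the 2 groups compared in the fit, where 54.5% of 369 miRNAs were called, the 5p arm passed (limma adjusted p = 0.0258) and the 3p arm did not (adjusted p = 0.16). Over the 243 miRNAs that none of the day 3 and day 30 arrays missed, a set chosen after seeing the data in which 70.4% were called, both passed (adjusted p = 0.0443 for 3p and 0.000628 for 5p).

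**Figure D2:**
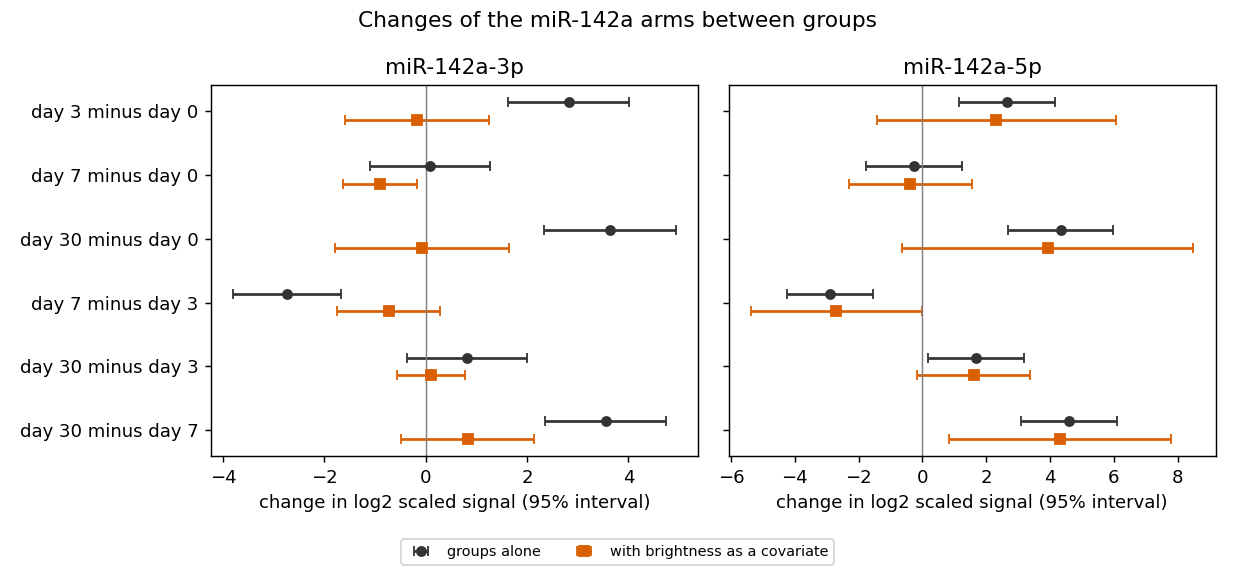
Change in log2 scaled signal of miR-142a-3p (left) and miR-142a-5p (right) in each comparison of 2 groups, with 95% intervals from limma, for the fit on groups alone (circles) and with array brightness as a covariate (squares). The 3p change of day 30 minus day 0 is 3.63 in the first fit and -0.07 in the second, and the 5p values at day 0 and day 7 rest mostly on background.

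A factor that scales a whole array cancels in the ratio of its arms where both are detected. The 3p signal was 5.71 to 6.34 times the 5p signal at day 30 (median 6.0), against 10.3 to 12.4 times at day 3 (median 11). All 3 day 30 arrays, of which replicates 2 and 3 count as 1 sample, lay below all 3 day 3 arrays. The only other array with both arms detected, day 7 replicate 1, had a ratio of 7.33. The ratio of 2 probe signals is not a ratio of molecules, and only its change is read. On the log2 scale it was 2.61 ± 0.08 at day 30 (n = 2) and 3.48 ± 0.14 at day 3 (n = 3), a difference of -0.87.

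Whether this difference passes depends on which arrays set the spread. In the fit of all 4 groups over 51 miRNAs with both arms tested, where day 0 and day 7 ratios rest on background (SD 1.92 and 1.05), it did not pass (95% interval -2.71 to 0.96, limma adjusted p = 0.49), while 31.4% of the pairs did. With only the 2 groups compared it passed (SE 0.19, adjusted p = 0.0128), as did 52.9% of the pairs. It also passed over the 26 pairs with both arms detected on all day 3 and day 30 arrays (interval -1.40 to -0.35, adjusted p = 0.0173), a set chosen after seeing the data, in which 42.3% were called and 61.5% did not overlap. An exact permutation test over the samples gave p = 0.1, two-sided, the smallest that 10 splits of 5 samples allow. The change was -0.88 within slide 1 and -0.81 within slide 2. Over all 4 groups the ratio passed neither the exact permutation test (p = 0.717, 25200 splits of 10 samples) nor the limma F test (adjusted p = 0.649), which 56.9% of the pairs passed.

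**Figure D3:**
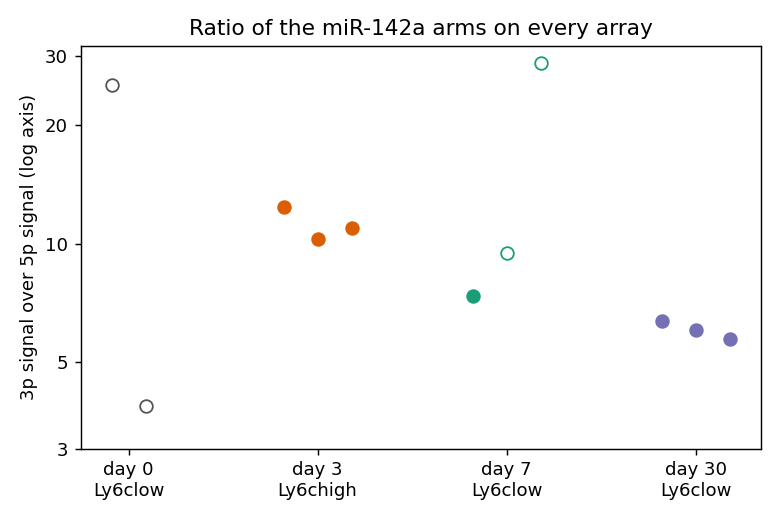
Signal of miR-142a-3p divided by that of miR-142a-5p on each array, on a log axis, by day and population. Filled points have both arms detected, and open points have the 5p arm at background. The day 30 arrays lie at 5.71 to 6.34 and the day 3 arrays at 10.3 to 12.4.

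Within every group miR-142a-3p was higher on brighter arrays, and by more than in proportion. Brightness at day 0 differed 2.93-fold between the 2 arrays and the 3p signal 7.16-fold. At day 7 replicate 1 was 2.84 times as bright as replicate 2 and had 7.06 times its 3p signal. At day 3 replicate 3 was 1.99 times as bright as replicate 2 and had 4.14 times its 3p signal. Of the 10 pairs of arrays within groups, 10 had a 3p ratio above the brightness ratio, for day 30 replicates 3 and 2 by less than the scanner's error. The pairs share arrays and are not independent.

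A limma fit of group and log2 brightness gave the 3p arm a slope of 1.86 on the log2 signal, where 1 stands for proportion. Its excess over 1 was 0.86 (SE 0.17, adjusted p = 0.00686). The slope was the 4th highest among the 126 miRNAs detected on all arrays, whose median was 0.72 with quartiles of 0.26 and 1.23. In this test 50.1% of 369 miRNAs were called, 20 with an excess above 0 and 165 below it. Within every group the brightest array was on slide 1 and the dimmest on slide 2. With the slide as a block the excess was 0.76 (SE 0.36, adjusted p = 0.164). In 3 pairs both arrays lay on 1 slide. The 3p signal differed 2.60-fold for a brightness ratio of 1.67 at day 3 and 1.97-fold for 1.24 at day 7, and 1.22-fold for 1.21 between the near-identical day 30 replicates 3 and 2.

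For miR-142a-5p the tie to brightness could be read only at day 3 and day 30. There the 5p ratio exceeded the brightness ratio in 6 of 6 pairs of arrays, of which 1 is day 30 replicates 3 and 2, counted elsewhere as 1 sample (1.29-fold against 1.21-fold, within the scanner's error). The ratios were, for example, 3.87-fold against 1.99-fold for day 3 replicates 3 and 2, and 2.30-fold against 1.59-fold for day 30 replicates 1 and 2. Fitted on these 2 groups alone, a setting chosen after seeing the data, the excess of the slope over 1 was 0.98 for the 5p arm (SE 0.10, adjusted p = 0.173) and 1.04 for the 3p arm (SE 0.11, adjusted p = 0.185). In that limma fit 0 of 369 miRNAs were called (66 at an unadjusted p under 0.05). The difference between the arms in this slope was 0.06 (SE 0.26, adjusted p = 0.882), with 2 residual degrees of freedom. Over all groups the 5p excess was 0.09 (SE 0.44, adjusted p = 0.883), a value that takes in 4 arrays at background.

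**Figure D4:**
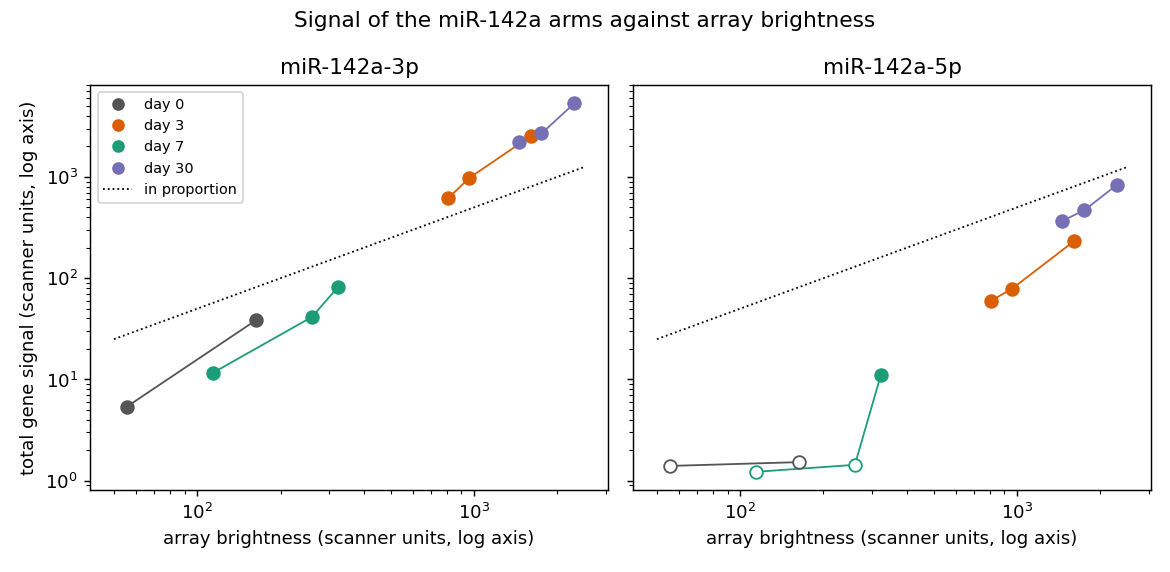
Signal of miR-142a-3p (left) and miR-142a-5p (right) against array brightness, both in scanner units on log axes, with a line through the arrays of each group. Open points were not detected, and the dotted line marks the slope of proportion. The day 3 and day 30 arrays follow a common line for the 3p arm, while for the 5p arm the day 30 arrays lie above the day 3 arrays.

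Arrays of like brightness could be compared at day 30 and day 3. Day 30 replicates 2 and 3 (brightness 1453 and 1754) had 3p signals of 2195 and 2684, against 2536 on day 3 replicate 3 (brightness 1607). Their 5p signals were 366 and 470, against 231 on that day 3 array. The 3p signals of day 30 thus lie on both sides of the day 3 value and the 5p signals above it. Day 30 replicates 2 and 3 count as 1 sample, and their 3p signals differed 1.22-fold for a brightness ratio of 1.21. Both sides are thus no measure of the spread of day 30. With brightness as a covariate in the fit of day 3 and day 30 alone, chosen after seeing the data, the difference was -0.06 for the 3p arm (SE 0.13, limma adjusted p = 0.8) and 0.87 for the 5p arm (SE 0.11, adjusted p = 0.0252), and 26.3% of 369 miRNAs were called. For the ratio of the arms it was -0.93 (SE 0.29, adjusted p = 0.0711), where 31.4% of the pairs were called.

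With brightness as a covariate in the fit of all groups, no change of miR-142a-3p between 2 groups passed. Day 3 differed from day 0 by -0.17 (95% interval -1.59 to 1.25, limma adjusted p = 0.931), and day 30 differed from day 0 by -0.07 (-1.80 to 1.65, adjusted p = 0.96). Day 7 differed from day 3 by -0.73 (adjusted p = 0.301). Day 30 differed from day 7 by 0.83 (adjusted p = 0.38) and from day 3 by 0.10 (adjusted p = 0.832). Day 7 differed from day 0 by -0.90 (interval -1.63 to -0.17, adjusted p = 0.0896), and the F test across groups still passed (adjusted p = 0.0448). In the same fit 18.4% of 369 miRNAs were called for day 3 and 18.7% for day 7, each against day 0, and 0 for day 30 against day 0 (75 at an unadjusted limma p under 0.05). The shares were 15.7% for day 7 and 35.5% for day 30, each against day 3, and 3.52% for day 30 against day 7. The 5p arm kept the sign of its change in all 6 comparisons and passed in none. Its brightness slope in this fit takes in arrays at background (excess of 0.09, SE 0.44), so the covariate took little out of its changes. The arms can therefore not be compared in how their changes stand up to brightness here. Its change was 1.61 for day 30 against day 3 (adjusted p = 0.141) and 4.30 for day 30 against day 7 (adjusted p = 0.14). Brightness separates day 3 and day 30 from day 0 and day 7, so that these fits carry a trend from within groups across a gap in which there is no array.

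miRNAs with a pattern like that of the 3p arm were sought among the 125 others detected on all arrays, by Pearson's r over the 10 samples. The 5 highest were miR-29a-3p (0.96), miR-19b-3p (0.95), miR-26b-5p (0.95), miR-15a-5p (0.94) and miR-29b-3p (0.93), against a median of -0.53. miR-19b-3p is a member of the miR-17-92 cluster, and the miR-29 family represses collagen mRNAs. With group means taken out, r was 0.76, 0.80, 0.82, 0.69 and 0.98 for these. All samples share the brightness gradient, on which these 5 also had slopes above 1. The slopes were 1.98 for miR-26b-5p, 1.94 for miR-29b-3p, 1.74 for miR-19b-3p, 1.34 for miR-15a-5p and 1.29 for miR-29a-3p. For the 5p arm miR-19b-3p, miR-15a-5p, miR-29b-3p, miR-29a-3p and miR-20a-5p came first (0.85 to 0.90), in a ranking that takes in 4 arrays at background. With group means taken out, their r was -0.07 to 0.34. The r between the arms was 0.90, and 0.24 with group means taken out.

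The miR-142a arms hold little G and C, and base composition ran along with the brightness slope over the array. Of the 101 miRNAs detected on all arrays with a RefSeq sequence, 2 had a lower G and C share than miR-142a-3p, and the median share was 50%. Across these miRNAs the slope and the G and C share had a Pearson r of -0.48, and the change of day 30 against day 0 and that share an r of -0.53. miRNAs under 40% G and C had a median slope of 1.28 (n = 14, range -0.12 to 1.98), and the other 87 a median of 0.73 (range -0.62 to 1.79). The limit of 40% was set after seeing the data, miRNAs are not independent replicates, and the part of base composition in the changes of miR-142a was not tested.

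**Figure D5:**
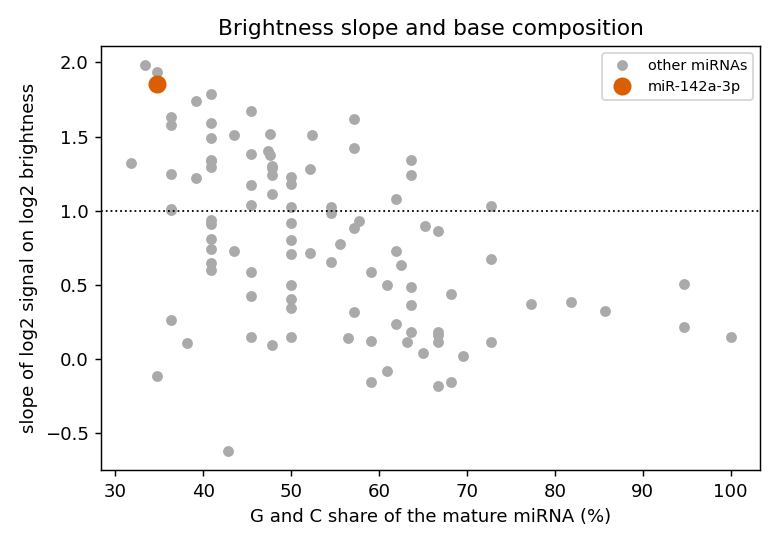
Slope of log2 signal on log2 array brightness within groups (1, dotted, stands for proportion) against the G and C share of the mature miRNA in percent, for 101 miRNAs detected on all arrays. miR-142a-3p, at 34.8% and a slope of 1.86, lies in the upper left, and r over all points is -0.48.

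Other leukocyte miRNAs, read for comparison with miR-142a, changed in both directions. Of 11 leukocyte miRNAs 10 were on the array and 9 were tested. At day 3 against day 0, 3 of 9 were higher, namely miR-223-3p (1.51, adjusted p = 0.0112), miR-181b-5p (1.23, adjusted p = 0.0211) and miR-155-5p, which Toll-like receptor ligands induce in macrophages and which was undetected at day 0 (adjusted p = 0.0188). Another 2 were lower, miR-146a-5p, a brake on Toll-like receptor signalling (-4.59, adjusted p = 0.000357), and miR-181a-5p (-1.29, adjusted p = 0.0219). The 5 called of 9 stand beside 55.3% of all tested miRNAs. With brightness as a covariate 0 were higher and 3 lower, and miR-223-3p was at 0.32 (limma adjusted p = 0.846). By limma 0 of the 9 were called at day 30 against day 0, beside 56.4% of all tested miRNAs. Their median change there was 0.18, against -1.37 over all tested miRNAs. At day 7 against day 0 the count was 0, beside 3.79% of all. Against day 3, 1 was higher and 1 lower at day 7 (beside 37.1% called of all) and likewise at day 30 (beside 30.9%). Between day 30 and day 7, 3 were higher and 3 lower, beside 47.7% called of all. Of these, miR-150-5p, abundant in lymphocytes, was lowest (-2.69, limma adjusted p = 0.0033) and miR-146b-5p highest (1.82, adjusted p = 0.0184). With brightness as a covariate 0 were called between day 30 and day 7, beside 3.52% of all. There miR-150-5p was at -2.17 (limma adjusted p = 0.314) and miR-146b-5p at -0.80 (adjusted p = 0.489). That fit had 1 higher and 2 lower both at day 7 against day 0 (beside 18.7% of all) and at day 30 against day 3 (beside 35.5%).

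Markers of other cells were read on the same arrays, as the summed signal of their detected members over the array's 75th percentile. Of 3 erythroid miRNAs 2 were on the array and 1, miR-451a, was ever detected, on 7 arrays. Its level was 0 on the day 0 arrays, 0.0288 to 0.0564 on those of day 3, 0 to 0.0104 on those of day 7 and 0.0815 to 0.106 on those of day 30, high and low in the same groups as miR-142a. miR-451a was higher than at day 0, where it was undetected, at both day 3 (limma adjusted p = 0.03) and day 30 (adjusted p = 0.00532). It was also higher at day 30 than at day 7, where most arrays had none detected (limma adjusted p = 0.000513). With brightness as a covariate the limma adjusted p was 0.141, 0.2 and 0.0537 for these comparisons. At day 7 against day 3 miR-451a was lower (-2.38, limma adjusted p = 0.00355), and the call held with brightness (-3.08, adjusted p = 0.0333). Its part in the result was not tested. The cardiomyocyte sum was 0.101 and 0.164 on the day 0 arrays and 0.0698 to 0.12 on those of day 7, with overlap. It was 0.0526 to 0.0774 for day 30, overlapping day 7, and lowest for day 3 (0.0158 to 0.0381). The sum of the fibroblast and smooth muscle list was 0 to 0.0312 (day 0), 0.082 to 0.112 (day 3), 0.165 to 0.412 (day 7) and 0.195 to 0.212 (day 30), and the endothelial sum 0.0647 to 0.417 (day 0), 0.306 to 0.402 (day 3), 0.287 to 0.342 (day 7) and 0.248 to 0.266 (day 30). The part of these cells was not tested.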

How the data were processed

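The members, lists and tests were chosen with earlier results of these data known. The deposited scanner files hold, per the file headers, a total gene signal (an intensity in scanner units on a linear scale), its error and a detection flag for 1247 miRNAs and 21 controls, read with Agilent Feature Extraction per the submitters' processing notes (its version is not stated there). The deposited table of log2 values covers 317 miRNAs, and its columns share 1 set of values, as after quantile normalization by the authors. It served as an alternative.

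The divisor of an array was the 75th percentile of those 126 miRNAs that all arrays detected. Values under a floor (the median over arrays of the lowest detected value, 0.00271, log2 -8.53) were raised to it before log2 was taken. The 369 miRNAs detected on at least 2 arrays were fitted with limma 3.58.1 (R 4.3.3, jsonlite 2.0.0), all groups in 1 model with 6 residual degrees of freedom. p-values were adjusted by Benjamini-Hochberg over all tested features, with calls under 0.05. Arm ratios of 51 miRNAs were fitted likewise. The fits were tested on simulated data. The slide of an array was inferred from a number in the name of its scanner file. Precision is limited by the number of arrays. Named miRNAs were the arms, the 5 of highest r with each, and list members by size of change.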

Additional observations from a re-analysis of the deposited data

How the results depend on the processing

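Over 27 other ways of processing and 3 added after seeing the data, 581 of 614 recomputed values kept their side of the threshold, of which 28 turned sign, 0 of them a called value; the cause of the other changes was not tested, and the 5p arm has no value over miRNAs detected on all arrays. With brightness as a covariate the 3p changes of day 3 and day 30 against day 0 reversed sign (-0.17 and -0.073), and calls were lost for 3p at day 7 against day 3 (-0.73) and day 30 against day 7 (0.83), and for 5p at day 3 (2.32) and day 30 (3.93) against day 0, day 7 against day 3 (-2.69), day 30 against day 7 (4.30) and across groups (F of 3.39). The excess of the 3p slope lost its call with the percentile over all miRNAs (1.54), the slide as a block (0.76), total signal as brightness (1.01), day 3 and day 30 alone in both added fits (1.04) and the replicate block (0.87), and the 5p slope gained one in the authors' table (1.09). The 5p change of day 30 against day 3 gained a call without scaling (2.52), with cyclic loess (1.94), total signal (2.06) or dmr control probes (2.63) for scaling, with 11 arrays counted separately (1.60), with brightness in day 3 and day 30 alone (0.87, added), and at an unchanged 1.68 with the highest floor, no filter, only the 2 groups, or miRNAs detected throughout both (added), where 3p (0.81) passed too. The arm ratio gained a call at day 30 against day 3 in these last 2 fits (-0.87), and at day 30 against day 7 with quantile normalization (-1.64) and in the authors' table (-1.71). Leaving out 1 array at a time gave 1.93 to 3.36 for the 5p arm at day 3 against day 0, with 1 lost call (without day 0 replicate 1), and 1.44 to 1.98 at day 30 against day 3, with 1 gained; no other call changed. The r of samples with like replicate numbers in other groups (-0.26 to 0.59) lay within the range of unlike ones (-0.69 to 0.63). These ranges cannot tell whether replicate number carries a shared structure. Replicate 2 was the dimmest array of every group, lay on slide 2 and had the lowest 3p signal of its group. The replicate block was fitted with 11 arrays counted separately. It lost the call of the 3p slope and, set against 11 arrays without it, that of 5p at day 30 against day 3 (adjusted p = 0.0536 with the block and 0.0494 without), and changed no other.

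Counts of called miRNAs moved more than those of the arms. Against day 0 they ran from 68 (brightness) to 1110 (no filter) at day 3, where 204 were called, from 0 to 1011 at day 7 (14) and from 0 to 1109 at day 30 (208). They ran from 58 to 790 at day 7 against day 3 (137), from 50 to 204 at day 30 against day 3 (114) and from 13 to 246 at day 30 against day 7 (176), leaving-out fits aside. Leaving out 1 array gave 29 (without day 30 replicate 1) to 160 at day 30 against day 3, and 128 to 240, 0 to 169 and 102 to 263 for day 3, day 7 and day 30 against day 0. It gave 82 to 220 at day 7 against day 3 and 110 to 208 at day 30 against day 7. Unscaled signals moved the median over the 126 miRNAs that every array detected to 3.26 for day 30 against day 0, where scaled ones had -1.06, and to 0.34 for day 30 against day 3, where scaled ones had -0.49 (76 higher and 55 lower, against 36 and 78). Without a filter most tested miRNAs are at background. Signal over background limits the 5p arm, which was undetected on 4 of 11 arrays.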

Other observations

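Other hairpins also changed the ratio of their arms between day 30 and day 3, over the 26 pairs detected throughout. They were named after their values were seen. The 3p over 5p ratio of miR-125a differed by -3.95 (SE 0.23, limma adjusted p = 2.79e-05), that of miR-652 by -1.79 (SE 0.23, adjusted p = 0.000845) and that of miR-340 by -2.04 (SE 0.36, adjusted p = 0.00369). The opposite direction was seen in miR-23a (2.28, SE 0.24, limma adjusted p = 0.000388), miR-362 (2.11, SE 0.22, adjusted p = 0.000388) and miR-466i (2.22, SE 0.38, adjusted p = 0.00369). The ratio of miR-142a, at -0.87, ranked 9th by p, and the median over the 26 pairs was -0.21. Over all 4 groups miR-130b, miR-1839 and let-7b had the lowest p of the limma F test on the arm ratio (adjusted p = 0.0013 for each), each with an arm undetected on some arrays.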
